A study of Mus musculus with 6 samples.

Results

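Myoblast fusion is the step of muscle formation in which single myoblasts merge their membranes into a multinucleated fibre. Cells first adhere through surface receptors, then rearrange actin under the contact, and finally open fusion pores with a pair of muscle-specific membrane proteins, myomaker and myomixer. The 10 genes described here are the rows of the deposited table with these names: Tmem8c (myomaker), Gm7325 (myomixer), Jam2, Jam3, Cdon, Cdh2, Nfatc2, Dock1, Dock5 and Rac1. They were chosen by name and role, with earlier results of these data known. All 10 were found among the 23420 genes of the table. Libraries of messenger RNA from satellite cells, the stem cells of skeletal muscle, numbered 3 for controls and 3 for Dnmt1 KO. The comparison asks how fusion genes differ in satellite cells that lack Dnmt1, the enzyme that maintains DNA methylation.

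All samples came from male C57BL/6 mice aged 7 weeks. The mice were bred from lines carrying Pax7-CreERT2, a Cre recombinase expressed from the Pax7 gene and active with tamoxifen, and a floxed Dnmt1 allele, and were given tamoxifen or vehicle on 5 days. The sources used here do not say which samples received vehicle, whether the controls carried Cre, or whether the cells had been cultured. They also do not say whether each library stands for its own animal, so p-values here reflect the spread among these libraries, which may be technical.

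The libraries held 954786 to 2021725 reads, and values are read counts that the authors scaled by 1 factor per library. Dnmt1 had values of 614, 539 and 655 in the controls, against 74.6, 36.1 and 81.2 in the knockouts. All 9 satellite cell markers examined were detected, with control means of 115 for Pax7 and 1563 for Myod1. Among the controls, replicate 2 differed most in genes of differentiating muscle: the mean log2 value of 17 contractile genes was 8.73 there, against 4.61 and 3.81 in the controls numbered 1 and 3. It was 7.39, 7.34 and 4.75 in knockout replicates 1, 2 and 3. Results that rest on control replicate 2 are therefore given with and without it.

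None of the 10 fusion genes passed the test for a difference between the groups. By limma with Benjamini-Hochberg adjustment at 0.05, 0 of the 10 were higher and 0 lower in the knockouts. Over all 12591 genes tested, 1.67% were called higher and 0.0953% lower, and a count of 0 among 10 lies close to those shares. All 10 members passed the filter on low values, which required 3 or more libraries with a value of 1 or more. Gm7325 passed with exactly 3 such libraries. The log2 fold change was positive in 6 members and negative in 4, with a median of 0.16, against 0.02 over all genes tested. An unadjusted p under 0.05 was found for 1 member, Cdh2, and for 15.5% of all genes tested. By edgeR's quasi-likelihood test on whole reads 0 members were called, and by DESeq2 1 was, again Cdh2. The authors' deposited table calls 0 of the 10 at a q-value of at most 0.05, where it calls 351 of all genes.

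The members spanned a wide range of levels. Per 1000 bases of exon, the control means in scaled read counts were 201 ± 6.12 for Rac1, 139 ± 26.5 for Cdon, 132 ± 20.2 for Cdh2, 82.5 ± 119 for Tmem8c and 50.4 ± 22.4 for Jam3 (SD, n = 3). They were 21.3 ± 5.44 for Jam2, 17.2 ± 29.9 for Gm7325, 11.1 ± 2.46 for Dock1, 1.64 ± 0.102 for Dock5 and 0.197 ± 0.177 for Nfatc2. In this order, the control libraries of Rac1 lay entirely above those of Cdon. Those of Jam3 lay above those of Jam2, those of Dock1 above those of Dock5, and those of Dock5 above those of Nfatc2. The other neighbours overlapped, which includes Cdon with Cdh2, and Tmem8c and Gm7325 with both of their neighbours.

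**Figure D1:**
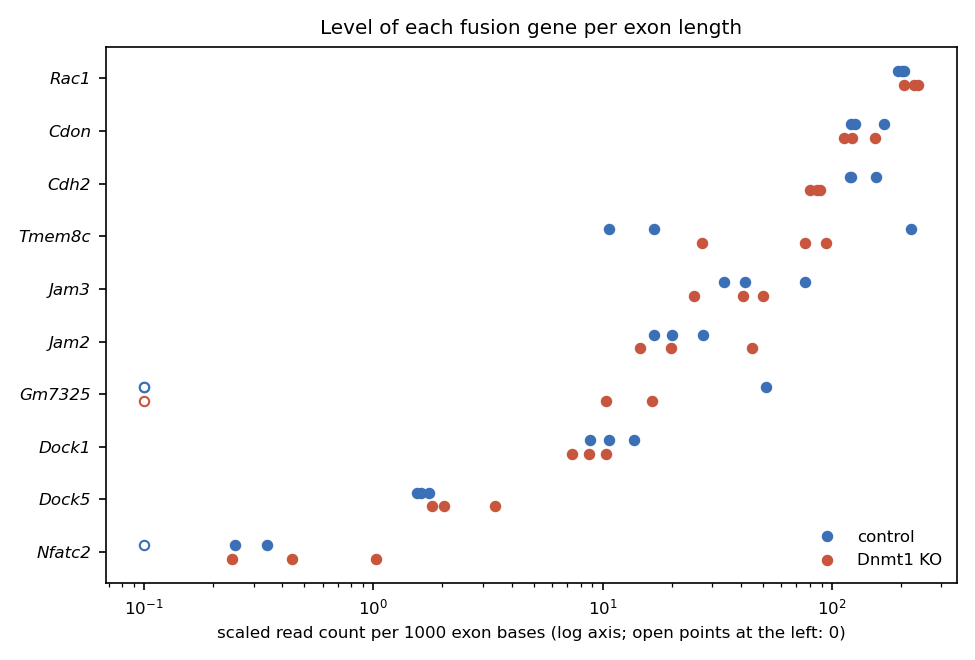
Level of each fusion gene in each library as scaled read count per 1000 exon bases, on a log axis, with controls in blue and Dnmt1 KO in red and values of 0 as open points at the left edge. Genes are ordered by control mean, from Rac1 to Nfatc2. Tmem8c and Gm7325 spread widely among the controls, and in control replicate 2 Tmem8c, at 220 per 1000 bases, lies above all the other members.

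Tmem8c encodes myomaker, the membrane protein that fusing myoblasts need on both cells. The gene lies on chromosome 2 at 27061636 to 27072161, on the minus strand (mm10, 6 exons as listed). Its value was 25.1, 329 and 15.9 in control replicates 1, 2 and 3, against 141, 113 and 40.6 in the same order of knockouts, from 25, 345, 23, 98, 113 and 33 reads. Control replicate 2 was the highest of all 6 libraries and the other controls were the lowest, so the knockouts lay inside the range of the controls. The group means were 123 ± 178 and 98.2 ± 51.7 (SD, n = 3 each), lower in the knockouts. On the log2 scale the knockouts were the higher group, with a log2 fold change of 0.74 (SE 0.93, 95% interval -1.34 to 2.82, adjusted p = 0.745, limma). The interval spans falls and rises of over 2-fold, so a difference was not detectable with these libraries.

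Control replicate 2 was the highest library in Tmem8c and in the contractile mean, so leaving it out raises the difference by construction. The log2 fold change of Tmem8c was then 2.06 (SE 0.41, 95% interval 1.17 to 2.95, adjusted p = 0.00894, limma). Each of the 3 knockout values lay above both remaining controls, which follows from the order of the libraries. Tmem8c was the 1 member called among the 9 tested in that setting, where 5.30% of 12445 genes were called higher and 0.916% lower. Its difference there was 4.17-fold on the log2(value + 1) scale. These values show how far the result depends on 1 library and are no separate support for a rise. Without control replicate 3 the log2 fold change of Tmem8c was -0.08 (adjusted p = 0.989). By read-count tests on all 6 libraries it was negative as well, at -0.35 with edgeR and -0.37 with DESeq2 (adjusted p of 0.888 and 0.974). With the contractile mean of each library as a covariate, an alternative added after the data were seen, it was 0.11 (adjusted p = 0.836, limma). Tmem8c ranked the libraries as that mean did, so that fit cannot decide whether Tmem8c differs between the groups.

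Gm7325 encodes myomixer, also called myomerger or minion, a very small membrane protein that completes the fusion pore. It lies on chromosome 17 at 45600967 to 45602102, on the minus strand, with 3 exons as listed and 976 exon bases. Its value was 0, 50.5 and 0 in the controls, against 10.04, 16.1 and 0 in the knockouts, from 53 reads in control replicate 2 and 7 and 16 in knockout replicates 1 and 2. The libraries without a read were control replicates 1 and 3 and knockout replicate 3. At their depth, 0 reads allows a value of up to 3.01, 2.07 and 3.69 respectively, counting error only. Group means were 16.8 ± 29.1 for controls and 8.70 ± 8.11 for knockouts (SD, n = 3 each). For Gm7325 limma gave a log2 fold change of 0.62 (SE 1.51, 95% interval -2.74 to 3.98, adjusted p = 0.877). It was -0.89 by edgeR (adjusted p = 0.792), and with a pseudocount of 0.1 in place of 1 it was 1.67 (adjusted p = 0.797), so its sign is not set by these data. The gene could not be tested without control replicate 2 or without knockout replicate 1 or 2, since too few libraries then passed the filter.

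With control replicate 2 included, the pair of fusogen genes varied more between replicates than nearly all other genes. The within-group SD of log2 values was 1.77 for Tmem8c and 2.80 for Gm7325, larger than in 99.3% and 99.9% of the 10411 tested genes with a mean value of at least 5. The median of those genes was 0.30. Both SDs include control replicate 2 and were not computed without it. In the controls in order, log2 values were 4.70, 8.36 and 4.08 for Tmem8c and 0, 5.69 and 0 for Gm7325. Within the knockouts they ranged over 1.77 and 4.09 log2 units respectively. Genes of differentiation spread both more and less widely. Over all libraries the highest value was 20.7 times the lowest for Tmem8c, 329 times for Myog, 498 times for Myh3 and 4.44 times for Tnnt2. Where both genes had reads, Tmem8c was 4.26, 9.15 and 4.62 times Gm7325 per exon base, in control replicate 2 and knockout replicates 1 and 2.

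The libraries were ranked by Tmem8c and by genes of differentiation. From high to low, Tmem8c ordered them control replicate 2, knockout replicates 1, 2 and 3, control replicate 1 and control replicate 3. Myog, the myogenic transcription factor that switches on differentiation, gave the same order, with 24.1, 1821 and 5.53 in the controls, against 905, 547 and 92.3 in the knockouts. So did the mean of the 17 contractile genes, while Myh3, the embryonic myosin gene, had knockout replicate 2 above knockout replicate 1 and otherwise the same order. The 3 libraries with Gm7325 reads were the 3 with the highest contractile means. Of the other tested genes with a mean of at least 5, 10402 in all, those whose centred log2 profile over the 6 libraries lay nearest to that of Tmem8c were Klhl40, Nrap, Neurl1a, Tmem38a and Asb2. Their root mean square distances were 0.21, 0.24, 0.25, 0.26 and 0.27 log2 units, where the median gene lay at 1.53. Among the nearest to Gm7325 were Atp2a1, Tnni1, Klhl41 and Srpk3, at distances of 0.39, 0.42, 0.42 and 0.50, where the median gene lay at 2.33. Srpk3 was at 0 in the same 3 libraries as Gm7325. These distances describe 6 libraries, among them control replicate 2, the highest library for both fusogen genes.

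**Figure D2:**
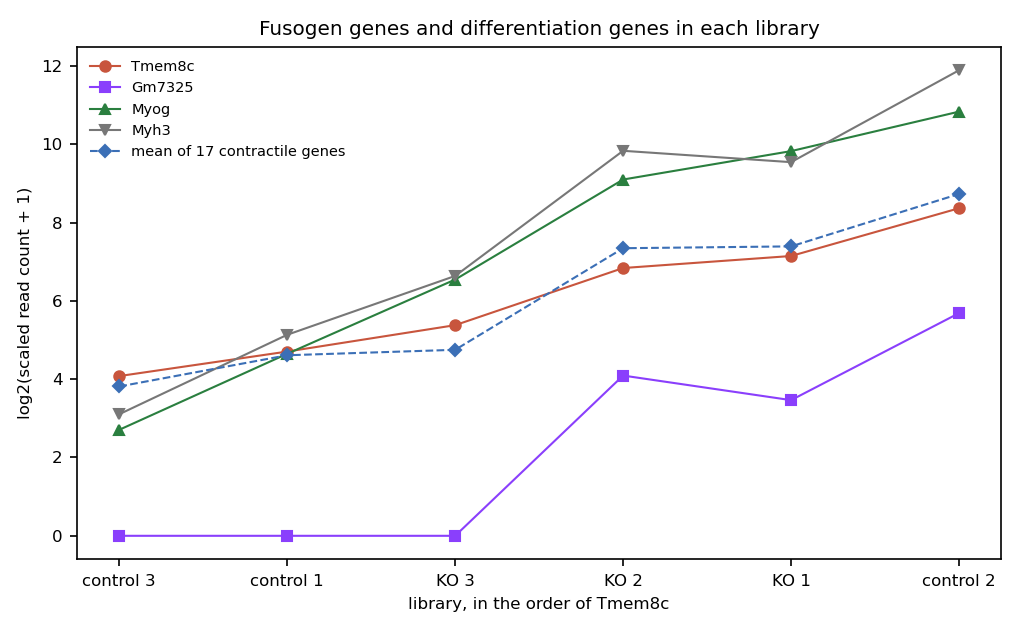
Values of Tmem8c, Gm7325, Myog and the embryonic myosin gene Myh3, and the mean of 17 contractile genes, as log2(scaled read count + 1) in each library, with libraries ordered by Tmem8c. Tmem8c, Myog and the contractile mean climb in the same order from control 3 to control 2, with knockouts in between, and Gm7325 is at 0 in the lower 3 libraries.

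Cdh2 encodes N-cadherin, a calcium-dependent adhesion protein that holds myoblasts together before fusion. It lies on chromosome 18 at 16588877 to 16809049, on the minus strand, with 16 exons as listed. Its value was 558, 724 and 564 in the controls, against 401, 374 and 414 in the knockouts. All 3 knockouts lay below all 3 controls, and the spread within the knockouts was small. The means were 615 ± 94.0 and 396 ± 20.1 (SD, n = 3 each), a log2 fold change of -0.62 (SE 0.15, 95% interval -0.96 to -0.29), or 0.649 times the control level on the log2(value + 1) scale. The unadjusted p was 0.00211 and the adjusted p 0.0808 by limma, which misses the threshold. With edgeR the adjusted p was 0.0802, and with DESeq2 it was 0.0355, past the threshold, in a test that called 0.159% of genes lower. With the replicate number as a block it was 0.0354 and with the contractile covariate 0.00987 (limma), both past the threshold. Those fits called 76 and 100 of 12591 genes lower, against 12 with neither term. No source used here says whether the numbers pair the libraries. Leaving out any 1 library gave log2 fold changes of -0.69 to -0.50 and adjusted p-values of 0.0702 to 0.287 by limma. The authors' deposited table gives it a p-value of 0.00299 and a q-value of 0.131.

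Groups that did not overlap were found in 2 of the 10 members, Cdh2 and Dock5, while 21.2% of all tested genes showed this. Some markers of other cell types differed between the groups too, where 1.67% of all genes tested were called higher and 0.0953% lower. With all libraries, limma called 0 of 6 endothelial markers tested. It called 0 of 4 for pericytes and smooth muscle and 0 of 2 for Schwann cells. Without control replicate 2, 2 of those 4 and 1 of those 2 were called higher, against 5.30% of all genes. The summed value of 8 markers of fibro-adipogenic progenitors was 426 to 767 in the controls, against 901 to 1534 in the knockouts, and 3 of the 6 tested, Col1a1, Col1a2 and Gsn, rose. All 6 tested had positive log2 fold changes with all libraries. Without control replicate 2, 5 were positive and that of Pdgfra was -0.53 (adjusted p = 0.679, limma). Of the markers on this list, Pdgfra and Dcn stayed at 9.03 or less in every library, and Lum was at 0 in all. Ly6a had 8.03, 5.71 and 1.38 in the controls, against 17.2, 7.02 and 6.15 in the knockouts. Its log2 fold change was 0.95 (adjusted p = 0.480, limma). The summed value of 12 macrophage markers was 21.9 to 38.1 and 77.5 to 188, mostly from Laptm5, while Ptprc and Emr1 were at 0 in all 6 libraries. Of the 3 macrophage markers tested 1 was called, Laptm5 (log2 fold change 1.92, adjusted p = 0.0391, limma). Of the 9 satellite cell markers 1 was called: Pax7 fell, with a log2 fold change of -0.85 (adjusted p = 0.0441, limma). Counting all 9, 5 had positive and 4 negative log2 fold changes, with a median of 0.09. Leaving out any library but control replicate 2 lost the calls of Pax7, Col1a1, Gsn and Laptm5 (adjusted p up to 0.232, limma). That of Col1a2 was lost without knockout replicate 1 (adjusted p = 0.0502, limma). The part of any of these in the lower Cdh2 values was not tested, and in such bulk samples fewer cells of a type and less RNA per cell cannot be told apart.

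**Figure D3:**
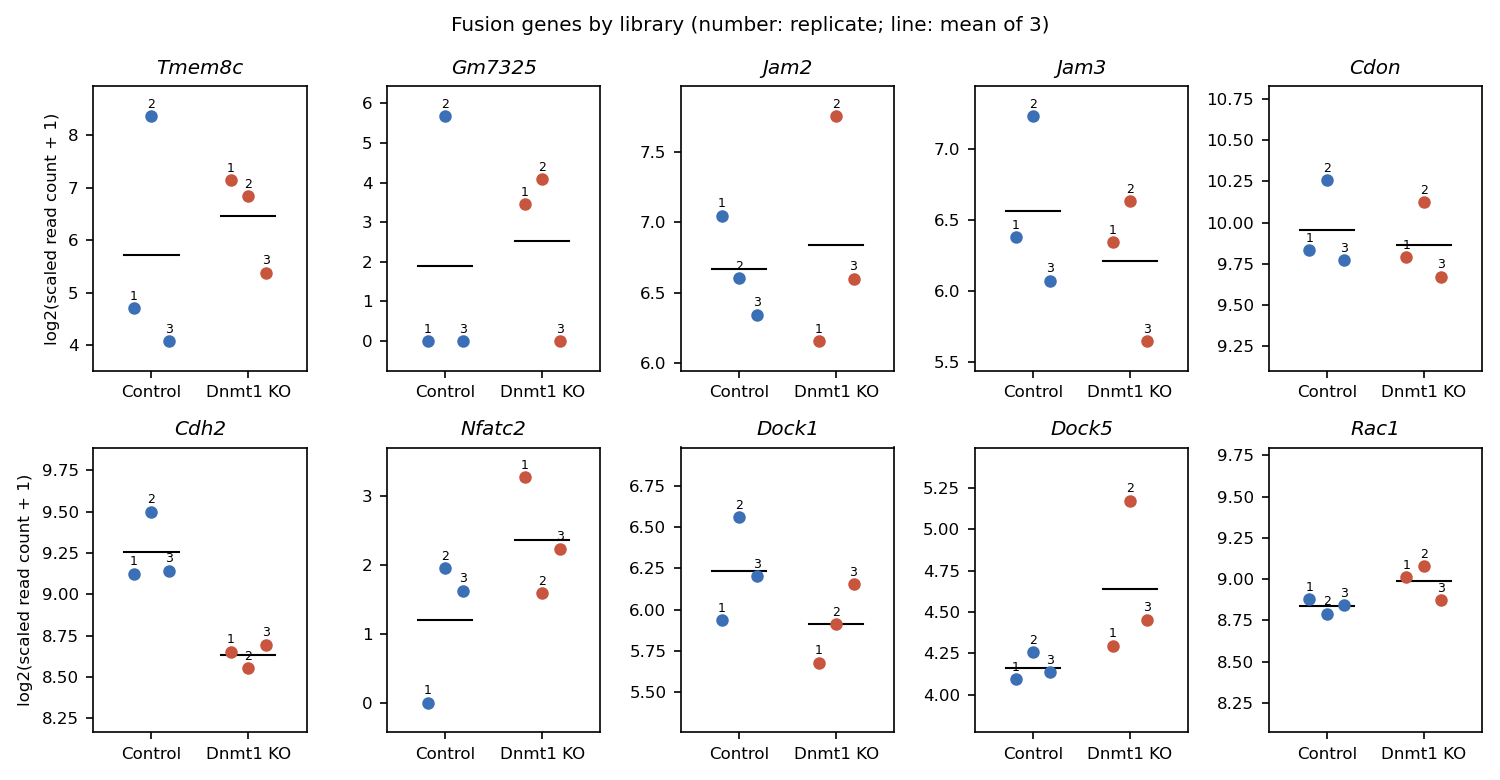
Each fusion gene in each library as log2(scaled read count + 1), with the replicate number beside each point and a line at the mean of 3; the vertical scale differs between panels. Control and knockout points of Cdh2 and Dock5 do not overlap, and those of the other 8 genes do.

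Jam2 and Jam3 encode junctional adhesion molecules, immunoglobulin-like receptors that bind each other across a cell contact and were found to be needed for fusion in zebrafish. Jam2 lies on chromosome 16 at 84774123 to 84826375 on the plus strand, and Jam3 on chromosome 9 at 27097384 to 27155421 on the minus strand. Jam2 had values of 131, 96.2 and 80.2 in the controls, against 70.3, 216 and 95.99 in the knockouts. Knockout replicate 2 was the highest and knockout replicate 1 the lowest, so the controls lay inside the knockout range. The means were 103 ± 26.2 and 127 ± 77.6 (SD, n = 3 each), with a log2 fold change of 0.17 (SE 0.36, 95% interval -0.64 to 0.98, adjusted p = 0.853, limma). Without knockout replicate 2 the value for Jam2 was -0.29 (adjusted p = 0.760).

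Jam3 had values of 82.3, 150 and 66.4 in the controls, against 80.3, 98.3 and 49.2 in the knockouts. Control replicate 2 was the highest and knockout replicate 3 the lowest, and the groups overlapped. The log2 fold change of Jam3 was -0.35 (SE 0.33, 95% interval -1.09 to 0.38, adjusted p = 0.645, limma), and without control replicate 2 it was -0.02 (adjusted p = 0.981). Both receptors are also known from endothelial cells. The summed value of 10 endothelial markers was 6.67 to 22.1 in the controls, against 13.5 to 20.1 in the knockouts, with Tie1 at 0 in every library and Pecam1 at 4.01 or less. An exon of Gm48796 lies opposite exons of Jam3, and no source used here states whether counting used strand.

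Cdon encodes a cell surface receptor of the immunoglobulin superfamily that binds N-cadherin and promotes myogenic differentiation. It lies on chromosome 9 at 35452076 to 35507652 on the plus strand, with 19 exons as listed. It had values of 911, 1222 and 873 in the controls, against 885, 1116 and 815 in the knockouts. Replicate 2 was the highest of each group and the ranges of the groups nearly coincided. The means were 1002 ± 191 and 938 ± 158 (SD, n = 3 each), and the log2 fold change was -0.09 (SE 0.19, 95% interval -0.50 to 0.32, adjusted p = 0.849, limma). A change of 2-fold in either direction lies outside that interval. Boc, its paralog and partner receptor, had 22.1, 27.6 and 20.1 in the controls, against 41.6, 81.3 and 55.4 in the knockouts, without overlap. Its log2 fold change was 1.28 (95% interval 0.64 to 1.92, adjusted p = 0.0588, limma), which misses the threshold, and its adjusted p was 0.0280 by DESeq2, a test that called 1.92% of genes higher. For Neo1, another receptor of this complex, the log2 fold change came to 0.07 (adjusted p = 0.895, limma).

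Nfatc2 encodes a calcium-regulated transcription factor which in mouse muscle acts after the first fusions, when young myotubes recruit further myoblasts. It lies on chromosome 2 at 168476410 to 168601655 on the minus strand, with 13 exons as listed. It was close to the detection limit, with 0, 3 and 3 reads in the controls, against 6, 2 and 3 in the knockouts. These are values of 0, 2.86 and 2.07 against 8.60, 2.01 and 3.69, and the groups overlapped. The log2 fold change was 1.17 (SE 0.66, 95% interval -0.30 to 2.64, adjusted p = 0.435, limma), and 2.25 with a pseudocount of 0.1 (adjusted p = 0.461). With so few reads a difference in Nfatc2 was not detectable at this depth.

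Since Dnmt1 acts on the dinucleotide CG, the promoters of the most and the least abundant of the members with a RefSeq promoter window, Cdon and Nfatc2, are shown for their different CG content. Windows matched 3 of the 10 members, the other being Dock1, and the data used here hold no methylation values. The sequences are the 250 bases before the start, 5′ to 3′ on the gene's strand, from RefSeq (GRCm38.p6), with each CG in capitals. That of Cdon is chr9:35451826-35452075 and that of Nfatc2, the nearer of its RefSeq windows to the first listed exon, is chr2:168601658-168601907.
Cdon: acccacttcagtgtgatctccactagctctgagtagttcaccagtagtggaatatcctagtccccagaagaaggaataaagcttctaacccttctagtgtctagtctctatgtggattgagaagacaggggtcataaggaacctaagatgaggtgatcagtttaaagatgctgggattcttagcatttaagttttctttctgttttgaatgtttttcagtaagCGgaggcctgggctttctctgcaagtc
Nfatc2: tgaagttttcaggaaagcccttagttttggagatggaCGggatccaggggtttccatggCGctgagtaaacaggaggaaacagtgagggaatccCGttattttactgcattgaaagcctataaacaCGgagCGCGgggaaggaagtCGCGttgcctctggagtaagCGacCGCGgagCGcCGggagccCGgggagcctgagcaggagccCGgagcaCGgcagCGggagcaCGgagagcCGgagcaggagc

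The Cdon window holds 1 CG and the Nfatc2 window 19, while the window of Dock1 holds 29 and the median over 32851 RefSeq promoter windows is 6. At least 1 CG is found in 92.1% of those windows, at least 19 in 19.7% and at least 29 in 6.78%. The E-box CANNTG, which reads the same on both strands and is the motif bound by MyoD and myogenin, was found in neither of the printed windows, against 66.2% of all windows. The windows not printed, that of Dock1 and another of Nfatc2 with 16 CG, hold 1 E-box each. These counts describe the letters of the windows alone.

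Dock1, Dock5 and Rac1 carry the signal from the contact to actin: the DOCK proteins are exchange factors that load the small GTPase Rac1, which drives branched actin. Dock1 lies on chromosome 7 at 134670687 to 135173647 on the plus strand and Dock5 on chromosome 14 at 67751928 to 67933572 on the minus strand. Rac1 lies on chromosome 5 at 143505481 to 143527993 on the minus strand. Dock1 had values of 60.2, 93.3 and 72.6 in the controls, against 50.2, 59.2 and 70.1 in the knockouts. The knockouts reached lower and the controls higher, with overlap between them. Its log2 fold change was -0.32 (SE 0.22, 95% interval -0.81 to 0.18, adjusted p = 0.528, limma).

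Dock5 had values of 16.1, 18.1 and 16.6 in the controls, against 18.6, 35.1 and 20.9 in the knockouts, from 13 to 35 reads a library. Every knockout lay above every control, but the lowest knockout and the highest control were 13 and 19 reads from libraries of different depth. Its log2 fold change was 0.48 (SE 0.32, 95% interval -0.23 to 1.19, adjusted p = 0.509, limma), and without knockout replicate 2 it was 0.21 (adjusted p = 0.875). Rac1 had values of 469, 442 and 458 in the controls, against 515, 540 and 468 in the knockouts. The highest control lay just above the lowest knockout. The means were 457 ± 13.9 and 507 ± 36.6 (SD, n = 3 each), with a log2 fold change of 0.15 (SE 0.13, 95% interval -0.15 to 0.45, adjusted p = 0.628, limma). Rac1 was the least variable member, with a within-group SD of log2 values of 0.08, and 1.86% of the 10411 genes had a smaller one. Exons of Daglb, at 10.5 to 27.7 in the 6 libraries, lie opposite those of Rac1. No 50-base word of the transcripts of any of the 10 members occurs in the GENCODE M21 transcripts of another gene.

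**Figure D4:**
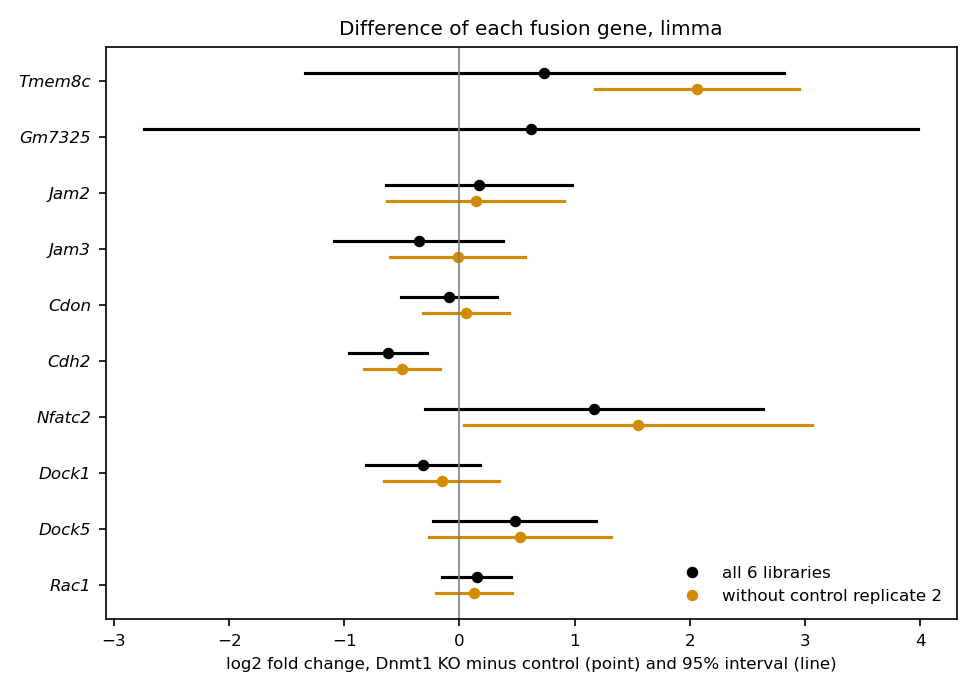
Log2 fold change of each fusion gene, Dnmt1 KO minus control, with its 95% interval from limma, for all 6 libraries in black and without control replicate 2 in orange. Tmem8c moves from 0.74 to 2.06 when that library is left out, Cdh2 lies below 0 in both, and Gm7325 could not be tested without it.

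Other genes were read from 6 lists, 5 with a part in fusion and its control and 1 of contractile genes, which mark differentiation. Of these, 85 genes were in the table and 78 were tested. By limma 2 rose and 0 fell, close to the 1.67% and 0.0953% called over all genes. An unadjusted p under 0.05 was found for 11 of the 78, no larger a share than the 15.5% of all genes. The median log2 fold change of the 78 was 0.29, and that of the 61 outside the contractile list was 0.24. Ehd2, a membrane-bending ATPase of caveolae, rose from 89.97 ± 20.2 to 184 ± 9.72 (SD, n = 3 each), by a log2 fold change of 1.05 (95% interval 0.63 to 1.47, adjusted p = 0.0250, limma). Its values were 87.3, 111 and 71.2 in the controls, against 179, 196 and 178 in the knockouts, without overlap. Il4ra, the receptor subunit for interleukin 4 through which NFATC2 acts in mouse myotube growth, rose from 16.7 ± 3.75 to 54.6 ± 21.02, by a log2 fold change of 1.61 (95% interval 0.89 to 2.32, adjusted p = 0.0398, limma). Il4ra had values of 16.1, 13.3 and 20.7 against 47.3, 78.3 and 38.2. Both genes lost their calls when any library other than control replicate 2 was left out, with adjusted p-values of 0.0842 to 0.139 for Ehd2 and 0.0623 to 0.187 for Il4ra, and Il4ra also with a pseudocount of 0.1 (adjusted p = 0.0567). The tested genes were 15 for adhesion and surface receptors, 21 for actin remodelling, 11 for membrane repair and remodelling, 7 for the NFAT and cytokine axis, 7 for myogenic transcription factors and 17 for contractile genes. Groups did not overlap in 18 of the 78, close to the 21.2% of all genes.

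Apart from Il4ra, the partners of the members named from the same lists did not pass the test. For Adam12, a surface metalloprotease of fusing myoblasts, the log2 fold change came to 0.31 (adjusted p = 0.519, limma). Crk, the adaptor that recruits DOCK1, had one of 0.08 (adjusted p = 0.836), and Elmo1, the binding partner of DOCK1, had 1 to 7 reads a library (0.74, adjusted p = 0.572). Dysf, which encodes the membrane repair protein dysferlin, had one of 0.90 (adjusted p = 0.601). Myod1, which commits cells to muscle, had one of -0.35 (adjusted p = 0.331). Cdh15, or M-cadherin, had values of 101, 302 and 60.2 in the controls, against 290, 270 and 166 in the knockouts (0.93, adjusted p = 0.394). Myog had a log2 fold change of 2.43 (SE 1.68, adjusted p = 0.525), Myh3 one of 1.96 (SE 1.81, adjusted p = 0.642) and Mef2c one of 0.24 (SE 1.26, adjusted p = 0.951).

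Without control replicate 2, 21 of the 78 listed genes rose and 2 fell, where 5.30% and 0.916% of all genes did. On the log2 scale the median difference was 0.48 for the 78 and 0.25 for the 61 outside the contractile list, against 0.02 for all genes. Of the 17 contractile genes 10 rose, and these are part of the 21. Control replicate 2 was set apart by its high level of these same genes. Leaving it out therefore raises their difference by construction, and the 10 calls are no separate support for a rise. Of the 61 others 11 rose, among them Cdh15 (log2 fold change 1.58, adjusted p = 0.00280, limma), Dysf (1.93, adjusted p = 0.0139), Boc (1.40, adjusted p = 0.0143) and Myog (4.81, adjusted p = 0.00123). Those that fell were Itga3 and Myf5. Myog ranked the libraries as the contractile mean did, so its rise also follows from the library left out. Control replicate 2 was also the highest of all libraries for Cdh15 (302) and Dysf (85.7), so leaving it out raises their differences too. The calls of Cdh15, Dysf and Myog are therefore no separate support for a rise. For Boc, control replicate 2 was the highest control (27.6) but lay below every knockout. In the actin remodelling list, 0 of 21 genes were called in either direction in either setting by limma, which lies close to the shares called over all genes. With all libraries the unadjusted p was under 0.05 for 1 of them, against 15.5% of all genes. Dock1, Dock5 and Rac1 also had no call in either setting.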

How the data were processed

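Messenger RNA libraries of satellite cells, 3 control and 3 Dnmt1 KO, were grouped by sample title. Reads were aligned to mm10 with TopHat and counted per gene with featureCounts, per the submitters' processing notes. No source used here gives the scaling method, versions, annotation or strand setting. The deposited sample columns hold a signal, scaled read counts: in each of the 6 libraries 100% of the values were whole multiples, within 0.001, of the smallest value above 0, and dividing by it gave whole reads. Also deposited are p-value and q-value columns from the authors' own test, whose tool is not stated, and exon lengths in bases are the authors' length column.

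Values were tested as log2(value + 1) with limma 3.58.1 in R 4.3.3 (trend, Benjamini-Hochberg over the 12591 genes that reached 1 in 3 or more libraries, threshold 0.05), since the values are not raw counts. A fold change on this scale understates that of genes with low values. Alternatives were a pseudocount of 0.1, 2 other filters, 3 scalings, a replicate block, leaving out single libraries, and edgeR 4.0.16 and DESeq2 1.42.0 on the whole reads. A contractile covariate and edgeR without control replicate 2 were added after the data were seen. The scripts were tested on simulated data.

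The named genes were the 10 members, Dnmt1, list genes past the threshold, 11 listed genes whatever their values, and for each fusogen gene the 5 nearest profiles, of which 1 is not reported here. Other genes are named as markers or after their values were seen. The members, lists and tests were chosen with earlier results of these data known. Of 86 listed genes of fusion and differentiation and 51 markers, 3 matched by an older symbol and 1, Fer1l5, had no row. The limma intervals, like the p-values, reflect the spread among these libraries, which may be technical. Floors for 0 reads (3 reads) cover counting error only, since reads are not independent molecules.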

Additional observations from a re-analysis of the deposited data

How the results depend on the processing

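Over all genes the counts moved with the setting, from 210 higher and 12 lower: 121 and 6 with a pseudocount of 0.1, 538 and 100 with the contractile covariate, 705 and 203 by edgeR without control replicate 2, and 20 lower by DESeq2. Leaving out 1 library gave 12 to 659 higher and 1 to 114 lower. The other 78 listed genes called numbered 1 higher with the pseudocount of 0.1, 4 higher by DESeq2, 12 higher and 2 lower with the covariate, 28 higher and 2 lower by edgeR without control replicate 2, and 0 to 21 higher and 0 to 2 lower with 1 library left out, where the 21 came without control replicate 2.

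Cdh2 passed with the covariate (log2 fold change -0.66, adjusted p = 0.00987) and by DESeq2 (-0.66). Tmem8c passed without control replicate 2 by edgeR as by limma (2.24, adjusted p = 0.00340) and was negative by edgeR (-0.35) and DESeq2 (-0.37). Gm7325 was negative by edgeR (-0.89), DESeq2 (-0.997) and with the covariate (-0.37). By edgeR without control replicate 2, Jam3 turned to 0.0093 and Cdon to 0.034. With 1 library left out, Tmem8c ranged from -0.081 to 2.06, Gm7325 from -0.32 to 1.88, Jam2 from -0.29 to 0.51, Cdon from -0.22 to 0.060, Mef2c from -0.70 to 1.94, Neo1 from -0.085 to 0.23 and Crk from -0.0081 to 0.15. Myog, Myh3 and Mef2c were negative by edgeR (-0.30, -1.16 and -1.26) and DESeq2 (-0.31, -1.17 and -1.36), and Mef2c with the covariate (-0.59). The causes were not tested. The 3 scalings and 2 other filters changed no direction and no call among the 10 members. The filter at 10 removed Nfatc2.

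No source used here says whether replicate numbers pair the libraries. Same-numbered deviations from the group means correlated at -0.06, 0.23 and 0.31, which cannot settle it. With the replicate block, 359 genes were higher and 76 lower, as were 5 and 1 of the other listed genes, and Cdh2 passed (-0.62, adjusted p = 0.0354). Control replicates 2 and 3 correlated best with the knockout of their own number and control replicate 1 did not. Control replicate 2 also correlated at 0.14 with knockout replicate 1. Deviations within a group depend on each other, so these correlations decide nothing about pairing. Nfatc2 and Elmo1 had at most 7 reads in any library, and Gm7325 had none in 3 libraries.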
